A study of Homo sapiens with 16 samples.

Results

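Kinesins are motor proteins that bind microtubules and convert ATP into movement or into disassembly of the microtubule end. Some build the spindle, align chromosomes and complete cell division. Others carry vesicles, organelles and protein complexes along the microtubule tracks of non-dividing cells, or act in cilia. KIF18A, a mitotic kinesin, travels to the plus ends of kinetochore microtubules and dampens the movements of chromosomes at the metaphase plate. Genes of the mitotic kinesins are transcribed mainly in G2 and mitosis, and their promoters are known for a CCAAT box, bound by NF-Y, and the cell cycle genes homology region (CHR), a TTTGAA-like element bound by the MuvB core of the DREAM and MYB-MuvB complexes.

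The kinesin genes described here are the protein-coding genes of GENCODE release 44 whose symbol starts with KIF and a digit, plus KIFC1, KIFC2 and KIFC3. There were 42 such genes among 20033 protein-coding genes. They were followed in lists of broad H3K27ac peaks, the histone mark of active promoters and enhancers, from bulk cultures of MDA-MB-231 and Hs578T, both established human triple-negative breast cancer lines. Each line came with a CRISPR control and an Fn14 knockout (KO) version, made with the inducible TLCV2 vector and guides against TNFRSF12A, the gene of Fn14. Fn14 is the receptor of the cytokine TWEAK. All cells were starved for 8 h, and TWEAK was given at 10 ng/ml for 48 h and replenished at 24 h. The untreated cells went through the same starvation. The 8 groups were thus MDA-MB-231 control untreated, MDA-MB-231 control TWEAK, MDA-MB-231 Fn14 KO untreated, MDA-MB-231 Fn14 KO TWEAK, and the same 4 combinations in Hs578T, with 2 replicate lists each and 16 lists in all. The study's methods call the ChIP-seq replicates biological, without saying which cultures they came from, and p-values measure the spread between these lists. Whether a KO line was 1 clone is not given in the sources used here, and an effect of the edit and a difference between sublines cannot be told apart.

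The lists held 39544 to 47197 peaks and covered 64.2 to 88.9 Mb. The MDA-MB-231 Fn14 KO lists had weaker peaks, with a median −log10 q-value of 5.79 to 7.69 against 9.44 to 10.8 in the MDA-MB-231 control lists, and a median fold enrichment of 4.998 to 5.21 against 5.53 to 5.89. Peak lists hold no reads, so depth is unknown and no counting interval can be given. The mesenchymal genes VIM, CD44, AXL, ZEB1 and CAV1 had a peak within 2 kb of the start site in all 16 lists. ESR1, PGR, GATA3 and CDH1 had one in no list, FOXA1 in 2, ERBB2 in 12 and EPCAM in 16. In bulk cultures, a lower share of cells carrying the mark and less of the mark per cell cannot be told apart.

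Of the 42 kinesin genes, 27 had an H3K27ac peak within 2 kb of the start site in all 16 lists, 3 in some lists and 12 in no list. Over all protein-coding genes, 54.5% had a start-site peak in every list and 36.3% in none, against 64.3% and 28.6% of the kinesin genes. The roles are textbook assignments, and the difference between them was not tested. Among kinesins of mitosis and cytokinesis, 12 of 14 had a peak in every list, and among cargo transport kinesins 11 of 17 did. Of the kinesins of cilia, 3 of 6 did, as did 1 of the 5 kinesins with other roles, the microtubule depolymerase KIF2A.

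The strength of a start site was taken as the fold enrichment over background of the strongest peak within 2 kb, as the peak caller wrote it. The median of the 27 genes with a peak in every list was 8.56, beside 9.16 over the 10909 protein-coding genes with a peak in every list. KIF23, which bundles the central spindle in cytokinesis, stood highest, with a lowest value of 11.3, a median of 14.0 and a highest value of 20.8 over the 16 lists. KIF11, the motor that pushes the spindle poles apart, had a median of 13.8 and KIFC1, a minus-end motor that focuses poles, had a median of 13.7. KIF18A had a median of 12.6 and a range from 10.5 to 15.7. Among cargo motors, KIFC3 had a median of 12.8, KIF5B, the ubiquitous conventional kinesin heavy chain, 11.49, and KIF13A, an endosome motor, 11.3. KIF27 and KIF9, kinesins of motile cilia, had medians of 13.7 and 13.6, and KIF24, which restrains cilium formation at the centriole, had 12.002. The order of these top genes rests on small steps, since the ranges of KIF23, KIF11, KIFC1 and KIF18A over the lists overlapped. At the low end, KIF16B had a median of 3.53, KIF13B 3.70 and KIF3B, a motor subunit of heterotrimeric kinesin-2, 3.82.

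**Figure D1:**
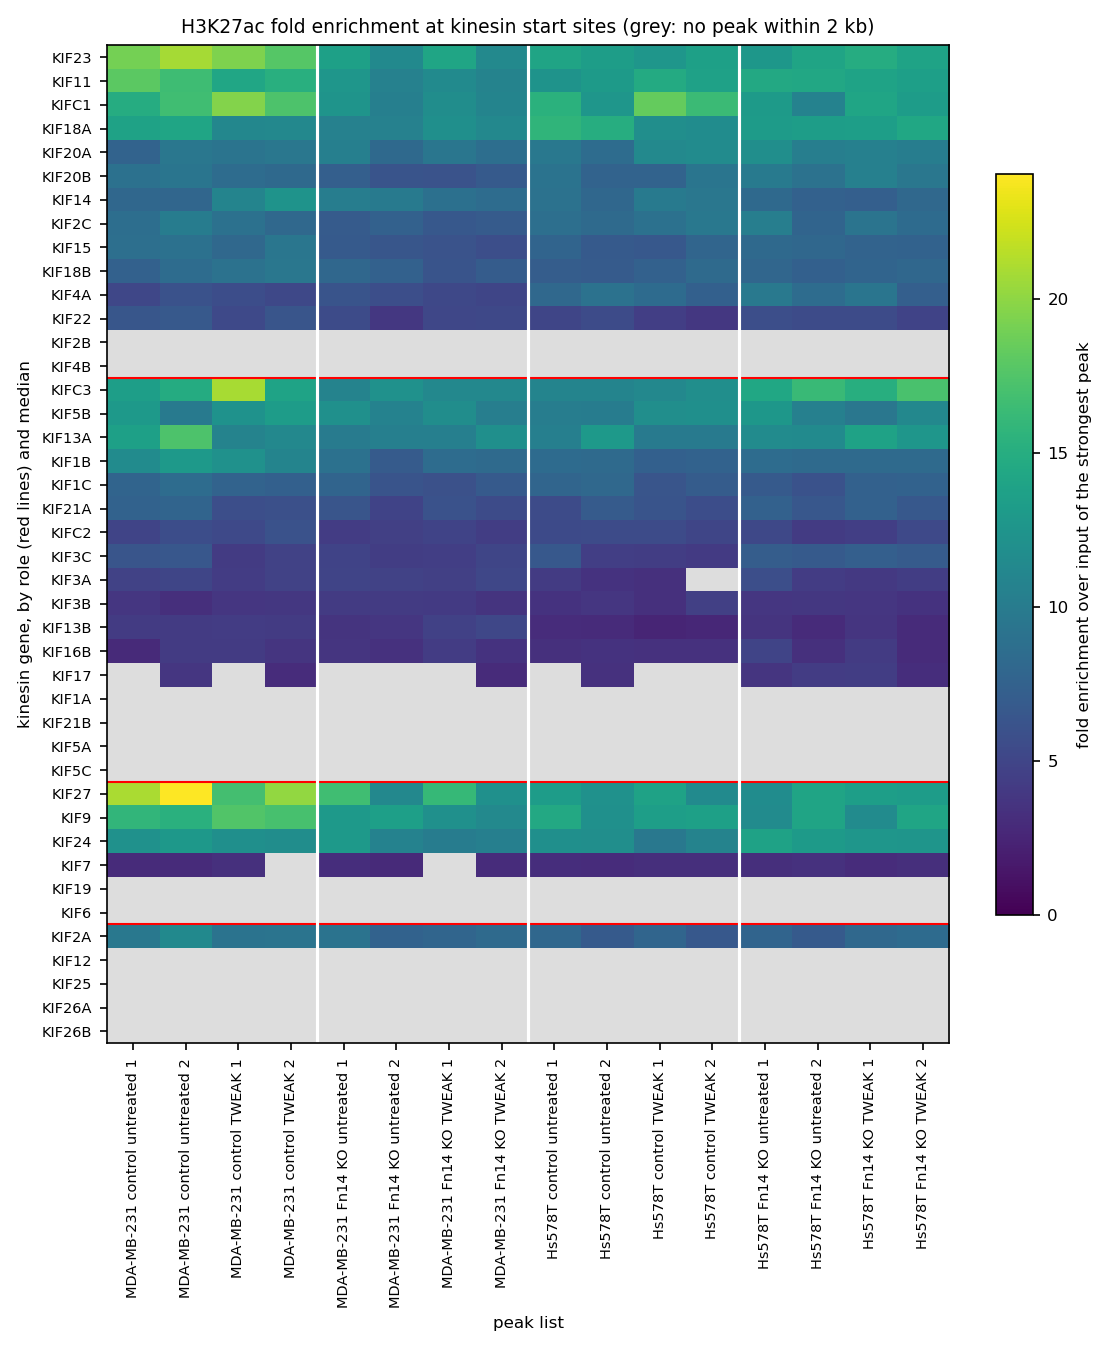
Fold enrichment over background of the strongest H3K27ac peak within 2 kb of the start site, by kinesin gene (rows, grouped by role with red lines and ordered by median) and peak list (columns, white lines separate line and genotype). Grey marks a list without such a peak, as in all 16 lists for 12 genes. KIF23 has the highest median, 14.0.

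The 12 genes without a start-site peak in any list included the neuronal motors KIF1A, KIF5A, KIF5C and KIF21B, the ciliary kinesins KIF6 and KIF19, and KIF12, KIF25, KIF26A, KIF26B, KIF2B and KIF4B. KIF2B and KIF4B are mitotic in name, yet KIF4B is an intronless copy of KIF4A, and reads from such copies can be split between them, so both KIF4 values are uncertain. KIF4A had a start-site peak in all 16 lists. The 3 genes with a peak in some lists had weak ones. KIF17, a motor of dendrites and cilia, had one in 8 lists, among them all 4 Hs578T Fn14 KO lists, with a highest fold enrichment of 4.37. KIF7, a regulator of Hedgehog signalling at the cilium tip, had one in 14 lists, and lacked it in MDA-MB-231 control TWEAK 2 and MDA-MB-231 Fn14 KO TWEAK 1. KIF3A, the other motor subunit of kinesin-2, had one in 15 lists and lacked it in Hs578T control TWEAK 2. In the gene extended by 50 kb on each side, called the locus here, 33 genes had a peak in all lists, 6 in some and 3, KIF12, KIF1A and KIF26A, in none.

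The mitotic promoters share letters that the choice of genes did not use. RefSeq promoters of GRCh38.p14, running from 250 bases before to 50 bases after the start, were found for 34 of the 42 genes. TTTGAA or its reverse complement TTCAAA occurred in 10 of 14 promoters of mitotic kinesins, in 1 of 12 of cargo transport kinesins, in 0 of 4 of ciliary kinesins and in 0 of 4 of the others. Over all 15001 promoters matched in this way it occurred in 11.5%. CCAAT or ATTGG occurred in 11 of 14 mitotic promoters and in 36.7% of all promoters. Both sets of letters stood together in 9 of 14 mitotic promoters, in 1 of the 20 other kinesin promoters and in 4.89% of all promoters. The AP-1 letters TGANTCA, searched once because they are their own reverse complement, occurred in 1 kinesin promoter, that of KIF21A, against 5.37% of all promoters. An NF-kB motif, searched on both strands, occurred in 0 of 34 against 1.5%. A match is a description of letters and not a site shown to be bound.

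The following stretches of 60 bases around the first TTTGAA or TTCAAA are shown for their TTTGAA-like element, which in KIF11, KIF18B, KIF23, KIF4A and KIF4B stands with CCAAT or ATTGG in the same stretch. In KIFC1 and KIF20B the nearest such letters begin 50 and 122 bases away and fall outside it. KIF15 is not printed, and its promoter had TTCAAA but neither CCAAT nor ATTGG. The stretches read 5′ to 3′ along the gene's strand, and capitals mark TTTGAA and CCAAT on either strand.
KIF11, chr10:92593060-92593119: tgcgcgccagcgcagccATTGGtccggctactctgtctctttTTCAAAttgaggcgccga
KIF18B, chr17:44947754-44947813: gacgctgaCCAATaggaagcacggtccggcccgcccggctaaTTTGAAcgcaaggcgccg
KIF23, chr15:69414252-69414311: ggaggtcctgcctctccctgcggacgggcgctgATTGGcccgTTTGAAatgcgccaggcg
KIF4A, chrX:70290028-70290087: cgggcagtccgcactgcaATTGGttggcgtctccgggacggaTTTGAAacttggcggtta
KIF4B, chr5:155013716-155013775: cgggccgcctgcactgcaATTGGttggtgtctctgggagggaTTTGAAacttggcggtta
KIFC1, chr6:33391785-33391844: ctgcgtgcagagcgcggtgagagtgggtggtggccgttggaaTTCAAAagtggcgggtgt
KIF20B, chr10:89701572-89701631: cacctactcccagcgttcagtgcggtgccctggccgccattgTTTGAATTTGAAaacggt

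In KIF11, KIF4A and KIF18B the first letters of both elements lay 25, 24 and 34 bases apart. KIF4B carried letters nearly like those of KIF4A, 24 bases apart as well, and had no peak within 2 kb of its start in any list.

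The promoters of KIF18A, KIF13A, KIF3C and KIF14 are printed whole because these are the genes whose response to TWEAK differed between control and Fn14 KO cells, as described further on. They read along the gene's strand, with TTTGAA or TTCAAA and CCAAT or ATTGG in capitals. The AP-1 letters and the NF-kB motif had no match in them.
KIF18A, chr11:28108107-28108406, minus strand: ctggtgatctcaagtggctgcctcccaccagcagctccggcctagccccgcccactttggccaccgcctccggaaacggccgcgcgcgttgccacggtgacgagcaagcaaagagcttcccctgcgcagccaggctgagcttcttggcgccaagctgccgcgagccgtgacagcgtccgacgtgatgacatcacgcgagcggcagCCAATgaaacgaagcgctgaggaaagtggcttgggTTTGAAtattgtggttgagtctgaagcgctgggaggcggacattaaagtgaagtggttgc
KIF14, chr1:200620702-200621001, minus strand: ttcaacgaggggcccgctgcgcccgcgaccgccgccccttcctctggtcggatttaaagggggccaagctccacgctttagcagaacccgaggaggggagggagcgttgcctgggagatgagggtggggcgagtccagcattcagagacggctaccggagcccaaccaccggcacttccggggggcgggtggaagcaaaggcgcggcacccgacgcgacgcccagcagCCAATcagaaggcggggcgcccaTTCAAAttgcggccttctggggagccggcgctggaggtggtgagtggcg
KIF13A, chr6:17987586-17987885, minus strand: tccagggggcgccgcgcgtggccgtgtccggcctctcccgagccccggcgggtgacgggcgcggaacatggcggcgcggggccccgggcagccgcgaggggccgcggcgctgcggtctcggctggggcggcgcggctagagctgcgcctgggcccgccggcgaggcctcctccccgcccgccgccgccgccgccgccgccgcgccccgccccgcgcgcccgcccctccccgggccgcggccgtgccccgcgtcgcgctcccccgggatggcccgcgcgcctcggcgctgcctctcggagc
KIF3C, chr2:25982448-25982747, minus strand: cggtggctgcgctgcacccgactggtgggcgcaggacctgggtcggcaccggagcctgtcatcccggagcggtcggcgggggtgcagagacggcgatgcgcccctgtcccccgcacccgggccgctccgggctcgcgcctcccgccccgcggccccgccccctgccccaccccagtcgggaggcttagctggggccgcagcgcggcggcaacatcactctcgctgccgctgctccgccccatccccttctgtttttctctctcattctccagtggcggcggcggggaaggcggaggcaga

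In KIF18A, CCAAT began 45 bases before the start and TTTGAA 10 bases before it. In KIF14 these letters began 22 bases before and at base 2 of the transcript. KIF13A and KIF3C had neither and were rich in G and C, at 87.0% and 75.0% of bases, against a median of 64.0% over all promoters.

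To ask how TWEAK changed the kinesin start sites, log2 fold enrichment was compared after subtracting each list's median over the 10909 genes, in a limma fit over all 16 lists with p-values adjusted over all genes by the Benjamini-Hochberg method. In control cells of both lines together, 9 of the 27 kinesin genes passed an adjusted p of 0.05, 2 higher and 7 lower with TWEAK. The background was 26.6% of all genes, 13.1% higher and 13.6% lower. The median difference of the 27 genes was −0.10 on the log2 scale, beside −0.01 over all genes. In Fn14 KO cells 0 of the 27 passed in limma, 1 had an unadjusted p under 0.05, and the background was 0%. Without subtraction of the list medians, 5 kinesin genes passed in control cells, 2 higher and 3 lower. The responses of control and Fn14 KO cells differed for 4 of 27 kinesin genes, against 13.8% of all genes, and these were KIF18A, KIF13A, KIF3C and KIF14.

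The mitotic motor KIF18A had the smallest adjusted p. Its start-site fold enrichment was 13.8 and 14.2 in MDA-MB-231 control untreated and 11.1 and 11.2 with TWEAK. In Hs578T control cells it was 15.7 and 15.03 untreated and 11.9 and 11.7 with TWEAK. All 4 TWEAK lists of control cells thus lay below all 4 untreated lists. In Fn14 KO cells the values were 10.6 and 10.5 untreated and 11.96 and 11.3 with TWEAK for MDA-MB-231, and 13.2 and 13.4 untreated and 13.5 and 14.3 with TWEAK for Hs578T. Within each KO line, the values with TWEAK exceeded those without. The fitted difference with TWEAK was −0.40 ± 0.07 (SE, log2) in control cells, a level 0.756 times that of untreated cells (limma, adjusted p = 0.000254), and 0.13 ± 0.07 in Fn14 KO cells (adjusted p = 0.999). The responses differed between the genotypes by −0.53 ± 0.10 (limma, adjusted p = 0.00123). Within lines, the control difference was −0.38 in MDA-MB-231 (limma, adjusted p = 0.0119) and −0.43 in Hs578T (limma, adjusted p = 0.0073), and a difference between the lines of 0.05 ± 0.14 did not pass (adjusted p = 0.976). In the deposited values, untreated MDA-MB-231 Fn14 KO cells stood below the TWEAK-treated control cells. After subtraction of the list medians they differed from untreated control cells by −0.06 ± 0.10 (limma, adjusted p = 0.711). Under all 19 alternatives tried the control difference passed, with adjusted p between 0.000193 and 0.0027.

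The length covered by peaks at KIF18A was compared separately. Around the start it cannot exceed the window of 4001 bp. Over the 16 lists the strongest peak was 2200 to 6461 bp wide, and 1 or 2 peaks reached the window. How peak width or splitting bears on the fold enrichment was not tested. Peaks covered 3536 and 4001 bp of the 4001 bp around the start in MDA-MB-231 control untreated and 3634 and 3781 bp with TWEAK, and 2886 and 2869 bp in Hs578T control untreated and 2792 and 3094 bp with TWEAK. The mean difference was 2.25 bp (two-sided exact permutation test of treatment within line and genotype, p = 0.944, where 36 arrangements allow no p below 0.0556). For the locus the difference was 611 bp (exact permutation p = 0.722) in control cells and −491 bp (exact permutation p = 0.889) in Fn14 KO cells, and the difference between them gave an exact permutation p = 0.617. The start of METTL15, a gene on the opposite strand, lies 232 bases away, so that the peak at KIF18A covers both starts and cannot be assigned to one. In all, 9 kinesin genes had another protein-coding start within 2 kb. The others were KIF15, KIF1C, KIF20A, KIF24, KIF2A, KIF4A, KIF9 and KIFC2.

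**Figure D2:**
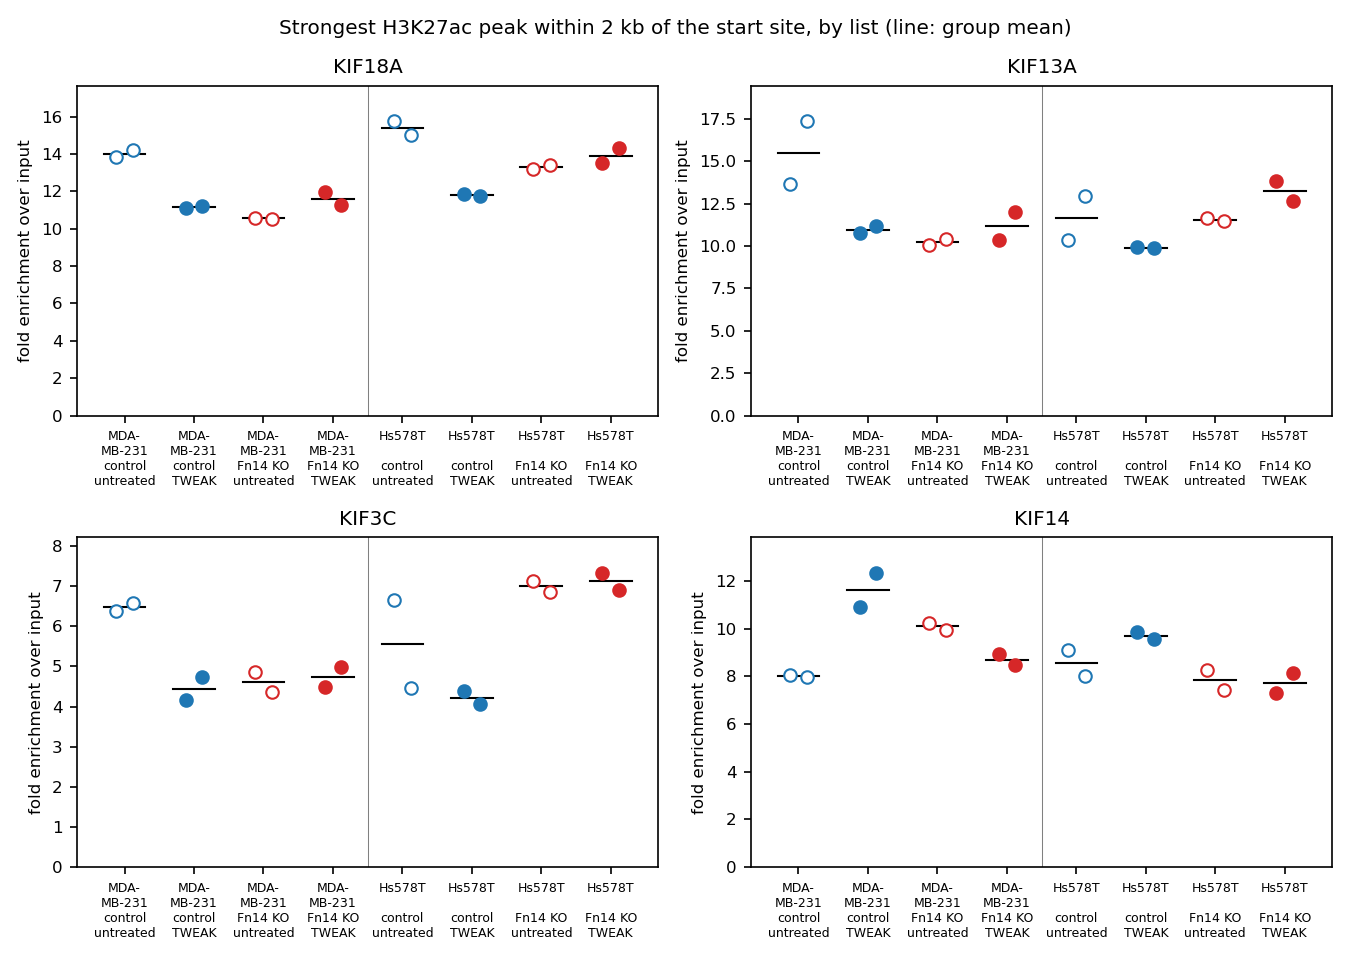
Fold enrichment of the strongest H3K27ac peak within 2 kb of the start of KIF18A, KIF13A, KIF3C and KIF14 in each of 16 lists (points, blue control, red Fn14 KO, filled TWEAK, 2 lists per group; black lines, group means). In KIF18A the 4 TWEAK control lists lie at 11.1 to 11.9 and the 4 untreated control lists at 13.8 to 15.7.

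Of the 7 genes that were lower, 4 were transport kinesins. KIF13A had 13.7 and 17.4 in MDA-MB-231 control untreated, 10.8 and 11.2 with TWEAK, and 10.4 and 13.0 in Hs578T control untreated, 9.93 and 9.90 with TWEAK. Every TWEAK list of a line was below the untreated lists of that line, while in Fn14 KO cells the lists of both treatments ran from 10.1 to 13.8. KIF13A fell by 0.41 on the log2 scale with TWEAK in control cells (limma, adjusted p = 0.00291), and its response differed between genotypes by −0.59 ± 0.13 (limma, adjusted p = 0.0051). KIF3C, a kinesin-2 motor subunit, had 6.38 and 6.58 in MDA-MB-231 control untreated, 4.15 and 4.73 with TWEAK, and 6.65 and 4.46 in Hs578T control untreated, 4.38 and 4.06 with TWEAK. Of the Hs578T control lists, untreated replicate 2 stood close to the TWEAK lists. KIF3C fell by 0.51 (limma, adjusted p = 0.00183) and differed between genotypes by −0.57 ± 0.15 (limma, adjusted p = 0.0179), a call lost without subtraction of the list medians (adjusted p = 0.055). The other lower genes were KIF1C, a vesicle motor of podosomes and Golgi membranes, at −0.23, KIF21A, a microtubule growth regulator, at −0.27, KIF22, the chromokinesin that pushes chromosome arms outward, at −0.31, and KIF24 at −0.19 (limma, adjusted p from 0.0236 to 0.0436). These 4 lost their call without the subtraction (adjusted p from 0.115 to 0.275). Over all 19 alternatives KIF1C lost its call in 11, KIF21A in 8, KIF24 in 7 and KIF22 in 5.

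Mitotic kinesins were called in both directions. KIF14, which with citron kinase acts at the midbody, had 8.03 and 7.96 in MDA-MB-231 control untreated and 10.9 and 12.3 with TWEAK, and in Hs578T control cells 9.09 and 8.01 untreated and 9.86 and 9.55 with TWEAK. It rose by 0.31 ± 0.08 in control cells (limma, adjusted p = 0.00728), and the response differed between genotypes by 0.41 ± 0.11 (limma, adjusted p = 0.021). This genotype difference lost its call in 5 of 19 alternatives, with a highest adjusted p of 0.0601 on leaving out 1 list. MDA-MB-231 Fn14 KO cells had 10.2 and 9.95 untreated, above the untreated control lists, and 8.92 and 8.48 with TWEAK. KIFC1 rose by 0.22 ± 0.08 in control cells (limma, adjusted p = 0.0358), with 14.9 and 16.7 untreated against 19.6 and 17.4 in MDA-MB-231 and 15.4 and 12.6 against 18.3 and 16.4 in Hs578T, and its call was lost on leaving out any of 5 of the 8 control lists, with the highest adjusted p, 0.157, without Hs578T control untreated 2. Of the 12 mitotic kinesins tested, 2 were higher and 2 lower, and of the 11 cargo transport kinesins 0 were higher and 4 lower. KIF24 was lower among 3 ciliary kinesins. The shares over all genes were 13.1% higher and 13.6% lower. The difference between these role groups was not tested.

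**Figure D3:**
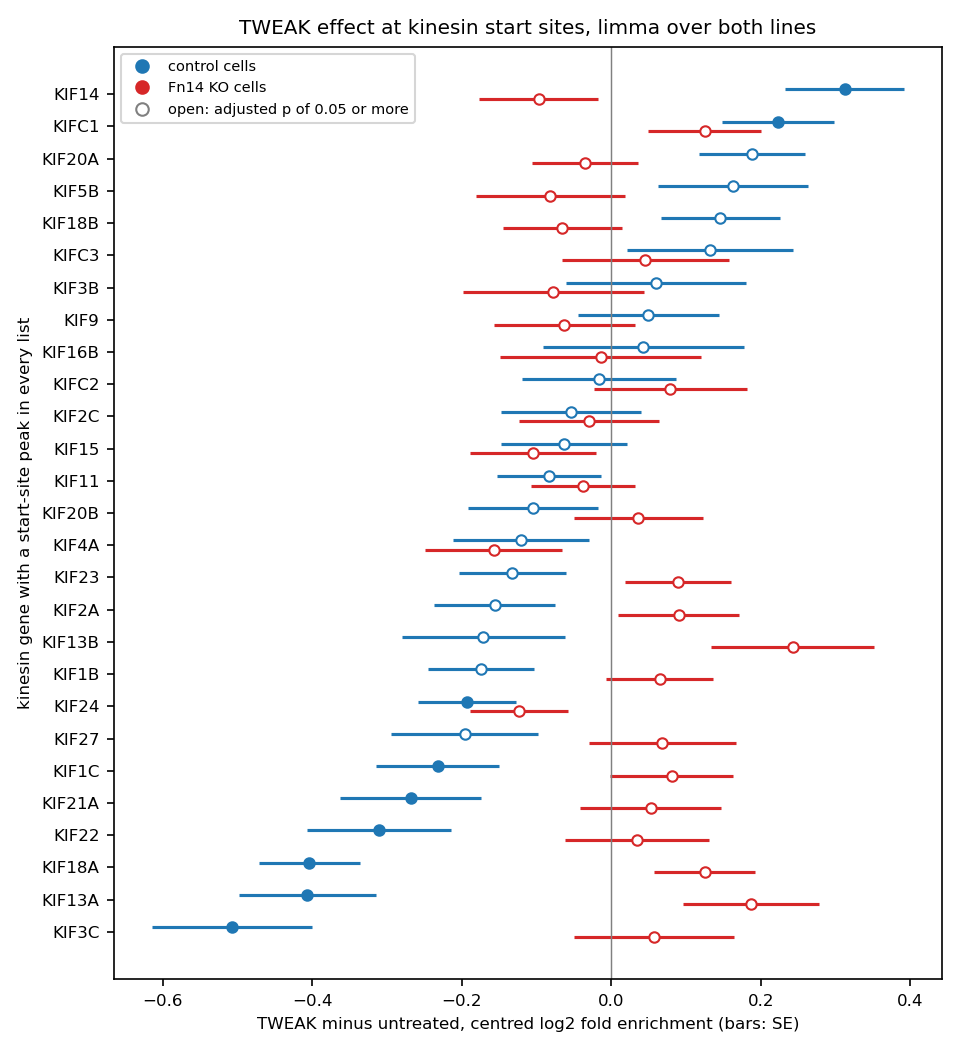
Difference in centred log2 fold enrichment, TWEAK minus untreated, for the 27 kinesin genes with a start-site peak in every list, in control (blue) and Fn14 KO cells (red) of both lines; bars are SE, filled points passed an adjusted p of 0.05 in limma. In control cells 9 points are filled, 2 to the right and 7 to the left, and in Fn14 KO cells 0.

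Genes that work with kinesins were tested in the same fit. All 20 mitotic partners, such as the kinase genes AURKB and PLK1, had a start-site peak in every list. With TWEAK in control cells AURKB and ECT2 were higher and ANLN lower, 3 of 20. Of 13 tested dynein and dynactin genes 2 were higher (DCTN5 and DYNC1LI2), of 10 tubulin genes 2 were higher and 2 lower, and of 7 kinesin light chain and adaptor genes 1 was higher (KLC1). Over all genes 13.1% were higher and 13.6% lower. In Fn14 KO cells 0 genes of these lists passed in limma.

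Covered length at start sites, which cannot exceed the window of 4001 bp, was tested separately. With TWEAK in control cells 1 of the 30 kinesin genes tested passed in limma, against 2.91% of all genes, and it was KIF3C. Its peaks covered 1466 and 1645 bp in MDA-MB-231 control untreated and 1074 and 1006 bp with TWEAK, and 1299 and 1508 bp in Hs578T control untreated and 616 and 1112 bp with TWEAK. Within each line both TWEAK lists were shorter. The difference was −528 ± 107 bp (SE, limma, adjusted p = 0.0295), and −484.75 bp within 1 kb of the start (adjusted p = 0.0541). Leaving out any of 5 of the 8 control lists also ended the call, with adjusted p up to 0.101. In Fn14 KO cells 0 of 30 passed, with 1 at an unadjusted p under 0.05 and a background of 0.00797%. The difference between genotypes gave 0 of 30, with 2 at an unadjusted p under 0.05 and a background of 0.94%.

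Covered length of the locus was compared as log2 of kilobases plus 1, which understates changes of loci with little coverage. With TWEAK in control cells 4 of 37 tested kinesin loci passed, 1 higher and 3 lower, against 17.9% of all genes, 6.84% higher and 11.1% lower. KIF3C was lower, at −0.34 ± 0.09 (limma, adjusted p = 0.0202), from 14174 and 16880 bp to 11470 and 11909 bp in MDA-MB-231 and from 14801 and 16767 bp to 12427 and 12701 bp in Hs578T control cells, without overlap. KIF18B, a mitotic kinesin at microtubule plus ends, was lower, at −0.26 ± 0.08 (limma, adjusted p = 0.0277). Leaving out any of 6 of the 8 control lists ended the call of KIF18B, with adjusted p up to 0.118, and any of 6 ended that of KIF3C, with adjusted p up to 0.0855. Also lower was KIF26B, an atypical kinesin of Wnt5a signalling, at −0.62 ± 0.19 (limma, adjusted p = 0.0402). KIF26B had 1754 and 2334 bp untreated against 1608 and 961 bp with TWEAK in control MDA-MB-231, and 1795 and 1057 bp against 875 and 0 bp in Hs578T. Its call was lost on leaving out any of 7 lists, 5 of them control lists, with the highest adjusted p, 0.168, without Hs578T control TWEAK 2. KIF19, a depolymerase of motile cilia, was higher by 0.68 ± 0.16 (limma, adjusted p = 0.0105), on 0, 0, 192 and 0 bp in the untreated control lists and 0, 665, 1181 and 1161 bp with TWEAK. This TWEAK call of KIF19 was lost in 3 of 22 alternatives. Among them were peaks of a −log10 q-value of at least 2 (limma, adjusted p = 0.0713) and lists trimmed to equal size (limma, adjusted p = 0.0937). The response of KIF19 differed between genotypes by 0.86 ± 0.23 (limma, adjusted p = 0.0464), 1 of 37 kinesin loci against 4.93% of all genes. That difference lost its call in 17 of 22 alternatives. In Fn14 KO cells 0 of 37 passed in limma and 0 had an unadjusted p under 0.05, against a background of 0%. With 10 kb in place of 50 kb flanks 1 kinesin locus passed in control cells, and after scaling to the total covered length 9 did.

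Peaks of all lists were then merged into regions, and the 55219 regions shared by 2 or more lists were used. Of these, 232 lay in kinesin loci, and 134 of the 232, or 57.8%, had a peak in every list, beside 51.3% of all regions. A region was called gained when both TWEAK lists of a line and genotype and neither untreated list had a peak, and lost in the reverse case, with no test since 2 lists stand against 2. In MDA-MB-231 control cells 5 kinesin regions were gained and 8 lost, that is 2.16% and 3.45% against 5.58% and 4.49% of all regions. In Hs578T control cells 3 were gained and 9 lost, 1.29% and 3.88% against 5.09% and 4.65%. The Fn14 KO cells of MDA-MB-231 gained 2 and lost 7, that is 0.862% and 3.02% against 0.321% and 1.35% of all regions. Those of Hs578T gained 2 and lost 1, 0.862% and 0.431% against 1.05% and 0.829%. In all, 2 kinesin regions were gained in control cells of both lines, 0.862% against 2.48%, and 4 were lost in both, 1.72% against 1.34%.

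Both gained regions had a peak in the 4 TWEAK-treated control lists and in none of the other 12, the Fn14 KO lists included. The call itself set the values in control cells, but not those in Fn14 KO cells. The first lies in an intron of KIF24, chr9:34325302-34326328, 3.45 kb inside the gene, and its peaks had fold enrichments from 2.47 to 3.81. The other, chr5:132750948-132751739, lies 13.8 kb upstream of KIF3A and overlaps annotated exons of CCNI2 and SEPTIN8, nearer to the start of CCNI2, at 3.92 kb, than to that of KIF3A. Its peaks had fold enrichments from 3.81 to 5.75. The 300 bases around the middle of each are shown because they mark where acetylation appeared in a kinesin locus, on the plus strand, with TGANTCA in capitals.
KIF24 region, chr9:34325666-34325965: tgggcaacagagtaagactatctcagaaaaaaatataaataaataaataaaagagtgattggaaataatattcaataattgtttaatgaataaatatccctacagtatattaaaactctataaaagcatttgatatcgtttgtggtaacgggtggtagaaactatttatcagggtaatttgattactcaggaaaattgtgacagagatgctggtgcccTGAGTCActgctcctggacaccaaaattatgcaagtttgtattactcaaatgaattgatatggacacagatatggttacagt
KIF3A region, chr5:132751194-132751493: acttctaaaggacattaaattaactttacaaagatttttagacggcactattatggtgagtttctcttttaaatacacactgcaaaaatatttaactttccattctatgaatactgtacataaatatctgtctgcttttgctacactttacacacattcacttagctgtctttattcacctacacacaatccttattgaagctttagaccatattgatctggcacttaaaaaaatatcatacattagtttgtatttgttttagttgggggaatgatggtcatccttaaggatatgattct

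TGANTCA thus matched in the KIF24 window and not in the KIF3A window, beside 33.4% of the 1367 regions gained in both lines and 26.1% of all regions. The NF-kB motif matched in neither, beside 11.3% and 1.88%.

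Other gains were seen in 1 line. The MDA-MB-231 controls gained a region 60.2 kb downstream of the start of KIF23, with a peak in no other list, 1 at 78.5 kb downstream of the start of KIF5B and 1 at 9.49 kb upstream of KIFC2. Other starts were nearer, those of RPLP1 (21.8 kb), ARHGAP12 (49.1 kb) and ZFTRAF1 (6.02 kb) in this order. The KIF5B region also had a peak in Hs578T control TWEAK 2. The KIFC2 region overlaps an exon of ZFTRAF1 and had a peak in 7 lists, among them Hs578T control and Fn14 KO lists. Hs578T control cells gained a region 44.9 kb upstream of KIF3A, in an intron of SEPTIN8, which also had a peak in MDA-MB-231 control TWEAK 2 and in 2 Hs578T Fn14 KO lists.

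The 4 regions lost in control cells of both lines lay in the loci of KIF13A, KIF3C, KIF18B and KIF25. In KIF13A the region, chr6:17928342-17929644, lies in an intron 58.6 kb inside the gene, and besides the 4 untreated control lists 1 further list, MDA-MB-231 Fn14 KO untreated 1, had a peak there. Its middle is shown as the counterpart of the gained regions.
KIF13A region, chr6:17928844-17929143: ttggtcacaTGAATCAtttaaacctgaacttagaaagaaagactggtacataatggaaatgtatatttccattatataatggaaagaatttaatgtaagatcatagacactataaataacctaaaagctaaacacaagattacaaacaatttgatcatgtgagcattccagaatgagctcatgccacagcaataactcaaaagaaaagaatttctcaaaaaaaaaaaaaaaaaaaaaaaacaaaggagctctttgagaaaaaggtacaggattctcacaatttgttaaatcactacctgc

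It held TGANTCA, as did 28.7% of the 742 regions lost in both lines. The KIF3C region, chr2:26000059-26002325, lies 18.7 kb upstream between genes, and 2 of the 8 Fn14 KO lists, both Hs578T, had a peak there. KIF3C and KIF13A were thus the kinesin genes with a lower start site and a region lost in both lines. The KIF18B region, chr17:44916215-44917620, lies 30.9 kb downstream of the start and overlaps an exon of GFAP, whose own start is 1.42 kb away, and TWEAK-treated MDA-MB-231 Fn14 KO cells had lost it too. The KIF25 region, chr6:167956334-167957961, lies 40.5 kb upstream in an intron of AFDN and kept a peak in all 8 Fn14 KO lists. At KIF18A a region inside the gene, chr11:28048759-28050699, was lost in Hs578T control cells and had a peak in all 4 Hs578T Fn14 KO lists. Another, chr11:28122807-28123584, in an intron of METTL15 and 15.04 kb upstream of KIF18A, was lost in MDA-MB-231 control cells and again had a peak in all 4 Hs578T Fn14 KO lists.

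**Figure D4:**
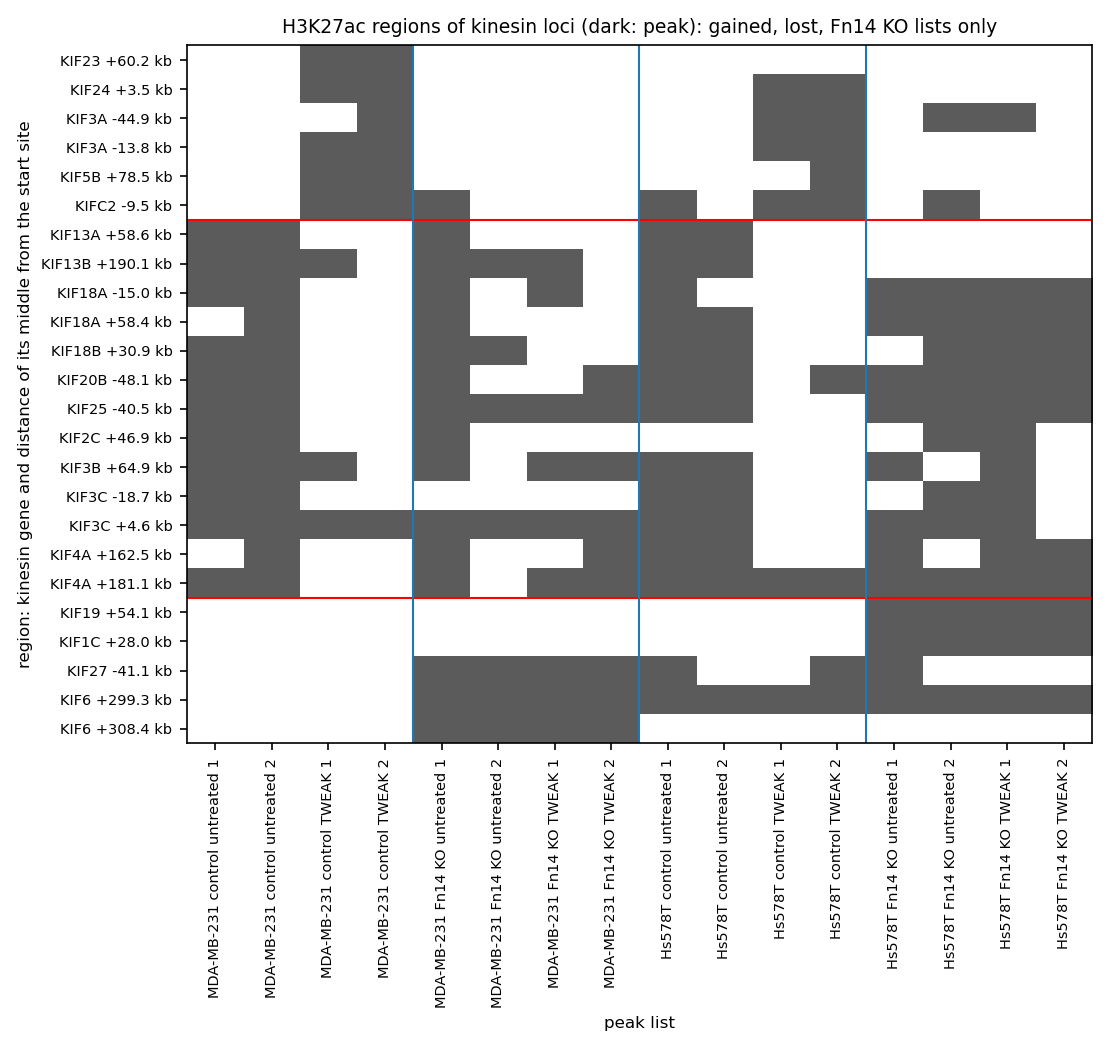
Presence of a peak (dark) in each of 16 lists (columns) for the regions of kinesin loci gained with TWEAK in control cells (top, 6 regions), lost with TWEAK in control cells (middle, 13 regions) or present in the 4 Fn14 KO lists and no control list of a line (bottom, 5 regions); labels give the gene and the distance from its start to the middle of the region, positive downstream. The KIF24 region at 3.5 kb and the KIF3A region at 13.8 kb upstream are dark in the 4 TWEAK-treated control lists alone.

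Fn14 KO and control cells were compared at each treatment. Untreated, 2 of 37 kinesin loci passed for covered length, against 0.575% of all genes, and both were higher in Fn14 KO cells, as were 0.318% of all genes. KIF6, a kinesin of motile cilia, had no covered base in 2 MDA-MB-231 control untreated lists and in TWEAK replicate 1, and 597 bp in TWEAK replicate 2, while the 4 MDA-MB-231 Fn14 KO lists had 5503, 4693, 4454 and 4035 bp. In Hs578T the control lists had 882 to 1293 bp and the Fn14 KO lists 235 to 684 bp, the reverse order, without overlap. The KO effect on KIF6 was 2.61 ± 0.18 on the log2 scale in untreated MDA-MB-231 (limma, adjusted p = 4.74e-06) and 2.05 ± 0.18 with TWEAK (limma, adjusted p = 1.91e-05), and it differed between the lines by 2.77 ± 0.18 (limma, adjusted p = 1.51e-06). The start of KIF6 had no peak in any list. The regions chr6:39415972-39418080 and chr6:39424913-39427240 lie in introns of KIF6, 308 and 299 kb from its start, and had a peak in every Fn14 KO list of MDA-MB-231 and in no control list of that line. The first had none in Hs578T, and the second one in all 8 Hs578T lists. In all, 3 kinesin regions of MDA-MB-231 (2 of KIF6 and 1 at 41.1 kb upstream of KIF27) and 2 of Hs578T (1 of KIF19 and 1 in an exon of KIF1C) had a peak in every Fn14 KO list and no control list of that line, against 0.447% and 0.788% of all regions. The reverse was seen for 0 kinesin regions, against 0.433% and 0.695%. Over both lines together, KIF6 passed at both treatments in all 23 alternatives. The weaker peaks of the MDA-MB-231 Fn14 KO lists, given above, move with genotype, and their part in these differences was not tested.

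KIF19 was also higher in untreated Fn14 KO cells, by 1.19 ± 0.16 (limma, adjusted p = 0.00417), with 1302 and 891 bp in MDA-MB-231 and 1674 and 1785 bp in Hs578T against at most 192 bp in the untreated control lists. In Hs578T Fn14 KO cells a region 54.1 kb downstream of the start of KIF19, chr17:74379766-74380851, had a peak in all 4 lists and in no control list. The call was lost with peaks of a −log10 q-value of at least 2 (adjusted p = 0.113) and with lists trimmed to equal size (adjusted p = 0.0811), and KIF19 was not among the loci tested with 10 kb flanks.

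**Figure D5:**
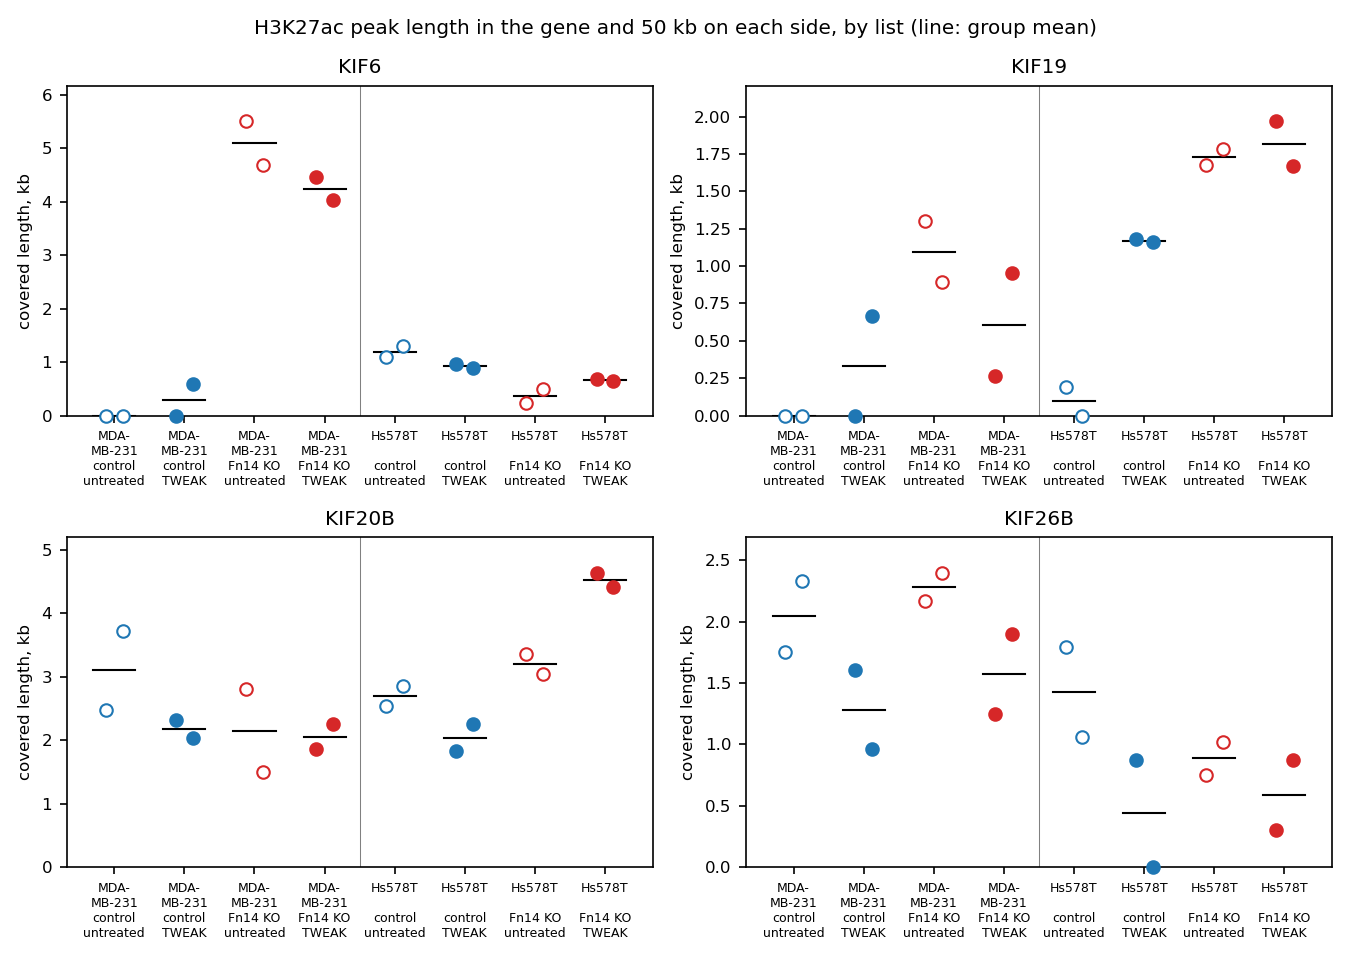
Covered length in kilobases of the KIF6, KIF19, KIF20B and KIF26B loci in each list (points, blue control, red Fn14 KO, filled TWEAK; black lines, group means of 2 lists). For KIF6 the 4 MDA-MB-231 Fn14 KO lists stand at 4035 to 5503 bp, above the other 12.

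With TWEAK, 3 of 37 kinesin loci differed between genotypes, against 18.6% of all genes. They were KIF6 (0.92 ± 0.13, limma, adjusted p = 0.000317), the mitotic KIF20B, higher by 0.40 ± 0.13 (limma, adjusted p = 0.046), and KIFC3, a minus-end motor at cell junctions, lower, at −0.21 ± 0.07 (limma, adjusted p = 0.0471). The last 2 lost their call in 17 and 14 of 23 alternatives. For KIF20B the Hs578T Fn14 KO TWEAK lists had 4636 and 4413 bp against 1822 and 2256 bp in Hs578T control TWEAK, while MDA-MB-231 had 1859 and 2250 bp against 2310 and 2035 bp.

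For start-site enrichment, 1 of 27 kinesin genes differed between the genotypes untreated, against 2.9% of all genes, 1.02% higher, and 8 did with TWEAK, against 30.8%, 14.8% higher and 16% lower. The single untreated call was KIF20A, a cytokinesis motor, higher in Fn14 KO cells by 0.33 ± 0.07 (limma, adjusted p = 0.0175). With TWEAK, 7 genes were higher in Fn14 KO cells, KIF3C (0.64), KIF13B (0.52), KIF13A (0.43), KIF18A (0.36), KIF21A (0.32), KIF22 (0.28) and KIF24 (0.25), and KIFC1 was lower (−0.32), with limma adjusted p from 0.000237 to 0.0357. This comparison shares its TWEAK control lists with the TWEAK comparison above. As a mean over both lines, the median fold enrichment over all genes was lower in Fn14 KO lists by 0.14 untreated and by 0.21 with TWEAK (log2). The values given are relative to the start-site median of each list, so the mean can hide the shift within a line. At KIF18A in untreated MDA-MB-231, most of the deposited difference between genotypes went with this subtraction, as given above. The medians over all peaks, given next, are not those subtracted. The lines were not alike. Over all peaks, MDA-MB-231 list medians ran from 4.998 to 5.21 in Fn14 KO and from 5.53 to 5.89 in control lists. Those of Hs578T overlapped, at 5.19 to 5.45 and 5.18 to 5.47. Without subtracting the list medians, 0 kinesin genes were higher and 6 lower untreated, and 2 were higher and 4 lower with TWEAK, and KIF18A no longer passed (adjusted p = 0.162). For covered length at start sites 0 of 30 passed untreated, with 2 at an unadjusted p under 0.05 and a background of 0.0877%, and 1 of 30 with TWEAK, against 2.77%. It was KIF3C, longer in Fn14 KO cells by 541 ± 107 bp (limma, adjusted p = 0.0255).

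The KO effect differed between the lines for 4 of 37 loci, against 7.4% of all genes, for 1 of 30 start sites in covered length, against 2.16%, and for 4 of 27 in enrichment, against 18.2%. At KIF18A the KO effect on covered length around the start went in opposite directions in the lines. Peaks covered all 4001 bp around the start in the 4 Hs578T Fn14 KO lists and 2792 to 3094 bp in the 4 Hs578T control lists. In MDA-MB-231 the Fn14 KO lists had 3996, 2562, 2501 and 3170 bp and the control lists 3536 to 4001 bp. The effect differed between the lines by −1772 ± 381 bp (limma, adjusted p = 0.0467).

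The lines themselves were compared over all 8 lists each. For the locus, 24 of 37 kinesin genes passed, 2 higher and 22 lower in MDA-MB-231, against 50.2% of all genes, 3.44% higher and 46.7% lower. The median was −0.20 for the kinesin genes and −0.16 for all genes, and MDA-MB-231 lists covered less in total, by 0.23 on the log2 scale. After scaling to the total, 11 passed, 7 higher and 4 lower. KIF6 and KIF26B were the higher loci. For KIF6 this held through the 4 MDA-MB-231 Fn14 KO lists, since the control lists had 0 to 597 bp in MDA-MB-231 and 882 to 1293 bp in Hs578T, the reverse order. The smallest adjusted p belonged to KIF3B, lower, at −0.44 ± 0.06 (limma, adjusted p = 8.88e-05), with 7830 to 10578 bp over the MDA-MB-231 lists and 10667 to 13792 bp over those of Hs578T, which did not overlap. KIF4A was lower, at −0.33 ± 0.07 (limma, adjusted p = 0.00133). With 10 kb in place of 50 kb flanks the KIF4A difference was −0.10 and did not pass (limma, adjusted p = 0.384).

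For start-site enrichment, which is centred, 11 of 27 differed between the lines, 5 higher and 6 lower in MDA-MB-231, against 53.2% of all genes, 25.7% higher and 27.5% lower. Of the 12 mitotic kinesins 5 were lower, KIF18A, KIF20A, KIF20B, KIF2C and KIF4A, and KIF23 was higher. The call of KIF23 was lost in 8 of 19 alternatives (limma, adjusted p up to 0.0961). That of KIF2C was lost without subtraction of the list medians (limma, adjusted p = 0.0524). KIF4A, the chromokinesin that sets the length of the central spindle, differed most, with 5.04 to 6.22 over the MDA-MB-231 lists and 7.33 to 9.74 over those of Hs578T, without overlap (−0.67 ± 0.06, limma, adjusted p = 2.31e-07). KIF18A was lower, at −0.26 ± 0.05 (limma, adjusted p = 0.000224). Among transport kinesins KIF13B and KIF1B were higher, by 0.42 and 0.22, and KIF3C lower, at −0.27 (limma, adjusted p of 0.000198, 0.0014 and 0.00577). For covered length at start sites 2 of 30 passed, against 15.9%, KIF13A and KIF14, shorter in MDA-MB-231 with differences of −504 and −343 bp (limma, adjusted p of 0.049 and 0.048). Each of these lost its call in 17 of 22 alternatives. Within 1 kb of the start KIF13A showed no difference, and that of KIF14 was −156.5 bp (limma, adjusted p = 0.267). No region of a kinesin locus had a peak in all 8 lists of one line and no list of the other, against 0.152% and 0.328% of all regions.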

How the data were processed

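H3K27ac ChIP-seq of 16 samples was available as broad peak lists. Per the methods, the authors used Trimmomatic for trimming, Bowtie2 for alignment (hg38) and MACS2 for peaks over input, and blacklisted regions were taken out. Versions are not given in the sources used here. Each deposited list gives a peak's position, its score, its fold enrichment (a ratio over background), and −log10 p- and q-values. Read counts were not used here, so depth and the authors' read-based comparison were not analysed here.

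Peaks were joined to GENCODE release 44 start sites (Ensembl canonical transcript, window of 2 kb on each side) and loci (gene body with 50 kb flanks) by an overlap of at least 1 bp. Genes needed a peak in 2 lists, or in all 16 for fold enrichment. The 3 measures below were fitted with limma 3.58.1 (R 4.3.3, mean-variance trend, 8 groups): log2 of covered kb plus 1, covered bp, and log2 fold enrichment minus the list median. The scripts were tested on simulated data. Where members passed a test, up to 10 with the smallest adjusted p are named, with KIF18A, the genes without a start-site peak in some or all lists, those with regions gained or lost in both lines, and examples of each role. Exceptions are the line comparisons of the locus and of start-site enrichment. They name only some of the genes that passed, and not always those with the smallest adjusted p. Regions called in 1 line, and start-site examples beyond this rule, were named after their values were seen. The members, roles and the partner, tubulin, dynein, adaptor and marker lists were chosen with earlier results of these data known. The alternatives varied the flank, window, overlap, pseudocount, filters, start definition, scaling, peak threshold, list size, replicate block and each list left out.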

Additional observations from a re-analysis of the deposited data

Results flagged for a closer look

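For 4 of 27 kinesin genes in enrichment and 1 of 37 in covered length of the locus, against 13.8% and 4.93% of all genes, the response to TWEAK differed between control and Fn14 KO cells by the interaction term in limma, given as control minus Fn14 KO on the log2 scale. For start-site enrichment it was −0.53 for KIF18A (adjusted p = 0.00123), −0.59 for KIF13A (adjusted p = 0.0051), −0.57 for KIF3C (adjusted p = 0.0179) and 0.41 for KIF14 (adjusted p = 0.021). For the covered length of the locus it was 0.86 for KIF19 (adjusted p = 0.0464).

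The effect of Fn14 KO differed between the lines for 4 of 37 loci, 1 of 30 start sites in covered length and 4 of 27 in enrichment, against 7.4%, 2.16% and 18.2% of all genes, given as MDA-MB-231 minus Hs578T. In covered length of the locus this was 2.77 for KIF6 (limma, adjusted p = 1.51e-06), −0.75 for KIF20B (adjusted p = 0.0289), −0.48 for KIF25 (adjusted p = 0.0313) and −0.54 for KIF23 (adjusted p = 0.0441). In covered length at the start site it was −1772 bp for KIF18A (limma, adjusted p = 0.0467). In start-site enrichment it was 0.63 for KIF14 (limma, adjusted p = 0.00124), 0.39 for KIF20A (adjusted p = 0.0119), 0.57 for KIF3B (adjusted p = 0.0272) and −0.50 for KIFC3 (adjusted p = 0.0347). The MDA-MB-231 Fn14 KO lists had the lowest median −log10 q-values of the 16 lists, and the part of this in these differences was not tested.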

How the results depend on the processing

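Of 1493 alternative values for 71 results on single kinesin genes, 1174 kept direction and side of the threshold, 314 lost the call and 5 reversed. With covered length scaled to the list total, the line difference of the locus turned to 0.0897 for KIF1C, 0.0865 for KIF22, 0.0366 for KIF3C and 0.0348 for KIFC2, none of which passed, and with 10 kb flanks that of KIF3A turned to 0.0652. Scaling changed the locus counts to 11 for line (7 higher, 4 lower), 9 for TWEAK in control cells (3 higher, 6 lower), 4 for the genotype difference in response and 9 for Fn14 KO with TWEAK (7 higher, 2 lower). Flanks of 10 kb gave 1 for TWEAK in control cells, 0 for the genotype difference and 1 for Fn14 KO untreated. The genotype difference was also 0 without a filter, with peaks of a −log10 q-value of at least 2, and with lists trimmed to equal size, and the last 2 settings gave 1 for Fn14 KO untreated. At start sites, a 1 kb window gave 1 for line, 0 for TWEAK in control cells and 2 for Fn14 KO with TWEAK. No filter gave 0, 0 and 0 for these 3. Trimming gave 1 for line and 2 for Fn14 KO with TWEAK, and the −log10 q-value limit gave 2 for the latter. Without centring, enrichment gave 5 for TWEAK in control cells and 6 for Fn14 KO untreated. Regions gained or lost came to 20 in MDA-MB-231 control and 5 in MDA-MB-231 Fn14 KO cells after trimming, and to 4 in MDA-MB-231 and 6 in Hs578T Fn14 KO cells with the −log10 q-value limit. The cause of these changes was not tested.

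Same-numbered lists share only a number. Their deviations correlated by 0.088, −0.0037, −0.0036 and 0.11 between treatments. With the replicate number as a block, the genotype difference of the locus gave 0, Fn14 KO with TWEAK 1 and line at start sites 0, and the other counts stayed within 1.5 times.

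Leaving out 1 list gave 16 to 28 locus calls for line, 0 to 7 for TWEAK in control cells, 0 to 2 for the genotype difference, 2 to 3 for Fn14 KO untreated and 1 to 6 with TWEAK. At start sites it gave 0 to 6 for line, 0 to 1 for TWEAK in control cells and 0 to 1 for Fn14 KO with TWEAK. For enrichment it gave 10 to 12, 4 to 9, 3 to 5, 0 to 1 and 6 to 10 in the order used for the locus. TWEAK in Fn14 KO cells gave 0 to 0 in all 3 measures. Any of the 8 control lists moved the TWEAK locus count by over 1.5 times, with 0 without MDA-MB-231 control TWEAK 2 and 7 without MDA-MB-231 control untreated 1. The enrichment count was 4 or 5 without MDA-MB-231 control untreated 1 or TWEAK 1, or Hs578T control untreated 2 or TWEAK 1. The KO locus count with TWEAK was 6 without either MDA-MB-231 Fn14 KO untreated list. The line count at start sites was 6 without MDA-MB-231 Fn14 KO untreated 1. KIF20A lost its call without MDA-MB-231 Fn14 KO untreated 1, Hs578T control untreated 2 or Hs578T Fn14 KO untreated 1. Regions came to 17 to 25 and 13 to 21 in MDA-MB-231 control and Fn14 KO cells, and 17 to 30 and 9 to 11 in Hs578T, where fewer lists have to match by construction. Without reads, a weak peak below the caller's threshold cannot be told from no peak.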
